A study of Homo sapiens with 12 samples.

Results

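MiR-671-5p and miR-671-3p are the mature arms that are cut from the 5′ and the 3′ side of a single hairpin, that of the gene MIR671. They are 2 of the 1733 mature miRNAs listed in at least one of the 12 small RNA libraries, and both were listed in every library. They were taken as the entries named hsa-mir-671-5p and hsa-mir-671-3p, and they were chosen by their LFC (log2 fold change, knockdown against control) after MYEOV depletion in the 2 cell lines. The differences between control and knockdown libraries are therefore given as descriptions, with a standard error and without a test. MYEOV is the gene that was depleted in this study of pancreatic ductal adenocarcinoma (PDAC).

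The libraries came from AsPC-1 and PANC-1 cells. Both are established human PDAC lines, AsPC-1 taken from ascites and PANC-1 from a primary tumor, and they were grown in different media. In each line, 3 control libraries were compared with 3 libraries of cells transfected with siRNA against MYEOV. The labels call the controls untreated, whereas the methods name a negative-control siRNA, and the labels give a harvest 48 h after transfection, whereas the methods give a shorter time. The knockdown libraries are numbered from 1 to 3 although only 2 siRNAs are named, so a number may stand for a replicate or for a siRNA. The methods say in general that experiments were repeated independently, but nothing ties the 3 libraries of a group to separate cultures, so p-values measure only the spread between these libraries, which may be technical. The counts hold no mRNA, so the degree of MYEOV depletion was not measured in these libraries. The arms were labelled as responding in opposite ways in the 2 lines, and this label comes from the same values. It describes their sum, though not without overlap under each scaling, and neither arm alone, as given below.

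A miRNA hairpin is trimmed in the nucleus by Drosha and in the cytoplasm by Dicer into a short duplex, of which one strand is loaded into an Argonaute protein and the other is usually degraded. Which strand is kept can differ between cell types. The loaded strand finds target RNAs mainly through its seed (bases 2 to 8). MiR-671-5p is known for an unusual target. It is nearly complementary to a site in CDR1as, a circular RNA expressed mainly in the brain, and directs its cleavage by Argonaute 2. CDR1as in turn carries many binding sites for miR-7. MiR-671-3p is the partner strand.

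Both arms are shown with the seed in capitals, together with miR-7-5p, since the results below turn on how the arms differ.
miR-671-5p: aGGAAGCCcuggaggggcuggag
miR-671-3p: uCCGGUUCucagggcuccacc
miR-7-5p: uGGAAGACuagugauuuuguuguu

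The 5p arm has 23 bases and begins with A, whereas the 3p arm has 21 bases and begins with U. Both are rich in G and C, with 69.6% in the 5p arm and 66.7% in the 3p arm, and 96.2% and 94.4% of the 576 tested miRNAs with a sequence in RefSeq had a GC content that was no higher. MiR-7-5p has 33.3%. No other mature miRNA in the RefSeq table has the seed of either arm.

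The hairpin is shown with both arms in capitals, to show where they lie in it.
MIR671: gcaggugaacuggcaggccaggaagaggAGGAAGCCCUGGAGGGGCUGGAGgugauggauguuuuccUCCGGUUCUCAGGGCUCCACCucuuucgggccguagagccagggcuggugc

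The hairpin has 118 bases. The 5p arm takes positions 29 to 51 and the 3p arm positions 68 to 88, with 16 bases between them. In the structure that RNAfold predicts (-66.9 kcal/mol), 18 of the 23 bases of the 5p arm pair with the 3p arm. On GRCh37, the build to which the authors mapped, the hairpin matches chromosome 7 on the plus strand from 150935507 to 150935624. The 5p arm lies at 150935535 to 150935557 and the 3p arm at 150935574 to 150935594. The hairpin lies within CHPF2 (150929569 to 150938065, plus strand), which encodes a chondroitin sulfate synthesis enzyme, and falls wholly inside the coding part of an exon in the 4 CHPF2 transcripts with an exon there (150934460 to 150935764). The only other miRNA gene within 1000000 bases is MIR3907, which starts at 151130575 on the minus strand. Its miRNA was listed in 4 libraries, with 1 read in each.

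The site that pairs best with miR-671-5p in LINC00632, the gene from which CDR1as is made, is shown as it stands on the plus strand of GRCh37. Bases that form a Watson-Crick pair with the miRNA are in capitals.
site in LINC00632: tTCCAGCatCTCCAGGGCTTCCa

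It lies on chromosome X from 139866625 to 139866647, which is inside an exon in 6 of the 29 LINC00632 transcripts of the annotation and intronic or outside in the others. Of its 23 bases, 19 form Watson-Crick pairs, and the next best stretch of the gene forms 16. Pairs of G with U were not counted, although each t in lowercase lies opposite a G. It starts 94 bases beyond the end of CDR1, a gene annotated on the opposite strand. The motif GTCTTCC, the complement of the miR-7 seed, was searched on the plus strand only. It occurs 38 times in the 789 bases opposite CDR1 and 33 times in the other 82865 bases of LINC00632. The ends of the circle were not mapped here, so this split does not tell how many matches lie in CDR1as. These matches describe the sequence. CDR1as itself is not counted in small RNA libraries and was not analysed here.

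The libraries held 3805084 to 7311783 counted reads. At these depths, 3 reads equal 0.410 to 0.788 counts per 1000000 reads (CPM), so both arms stood well above the floor of detection. No molecular identifiers were counted, so reads may be PCR copies, and floors and intervals cover counting error only. AsPC-1 control replicate 1 stood apart from the other controls of its line. Set against theirs, its counts gave a chi-square of 224 and 183 per degree of freedom, and the other two gave 22.1. The AsPC-1 knockdown differences of the 5p arm, of the sum of both arms and of their ratio are given with and without it. A read spans a whole mature miRNA, so levels of different miRNAs were compared without a correction for length. In bulk RNA, fewer cells making a miRNA and less of it per cell cannot be told apart.

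MiR-671-5p was lower in each MYEOV-knockdown library of AsPC-1 than in each control library. The controls had 196, 156 and 137 reads, or 29.0, 22.1 and 19.2 CPM after scaling within the line with trimmed mean of M-values (TMM) factors. The knockdown libraries had 40, 83 and 66 reads, or 6.89, 13.9 and 11.9 CPM. The groups did not overlap, although the lowest control and the highest knockdown library lay close to each other. The means were 23.4 ± 5.04 and 10.9 ± 3.61 CPM (SD, n = 3), and both SDs were larger than the counting error alone (1.82 and 1.36 CPM). The LFC from edgeR was -1.10 (standard error 0.22), so the level was 0.467 times that of the controls. It was the second lowest LFC among the 498 miRNAs tested in AsPC-1, whose median LFC was -0.0047 and whose median absolute LFC was 0.19. For comparison, 13.7% of those miRNAs lay lower in each knockdown library than in each control library. These values chose the arm and support nothing by themselves. Without control replicate 1, the LFC was -0.91, and without knockdown replicate 1, which had the lowest count, it was -0.86.

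In PANC-1, miR-671-5p showed no such difference. The controls had 81, 82 and 67 reads (17.8, 15.4 and 17.3 CPM) and the knockdown libraries had 65, 80 and 68 reads (16.9, 21.0 and 15 CPM). The groups overlapped, with the highest and the lowest value both in the knockdown group, whereas 36.7% of the 551 miRNAs tested did not overlap. The means were 16.9 ± 1.28 and 17.6 ± 3.09 CPM (SD, n = 3), and the LFC was 0.06 (standard error 0.18, 95% interval -0.29 to 0.42). The sign was not stable. It was -0.08 with total count scaling, -0.08 without knockdown replicate 2 and -0.0042 without control replicate 2. In the fit over all 12 libraries, the LFC in AsPC-1 minus that in PANC-1 was -1.25 (standard error 0.31), or -1.06 without AsPC-1 control replicate 1. Its values in PANC-1 thus gave no direction.

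MiR-671-3p showed the converse. In AsPC-1, it had 107, 124 and 140 reads (15.8, 17.5 and 19.6 CPM) in the controls and 119, 88 and 95 reads (20.5, 14.7 and 17.2 CPM) after knockdown. The groups overlapped, with both the highest and the lowest value of the line in the knockdown group, whereas 30.5% of the 498 miRNAs tested did not overlap in either direction. There the LFC was -0.02 (standard error 0.16, 95% interval -0.37 to 0.33). It ranged from -0.15 to 0.10 when each library was left out in turn, so that its sign is not defined.

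In PANC-1, the controls had 130, 187 and 134 reads of miR-671-3p, or 28.6, 35.1 and 34.7 CPM. The knockdown libraries had 183, 182 and 180 reads, or 47.6, 47.9 and 39.7 CPM. On this scale, each knockdown library lay above each control, as was the case for 19.6% of the 551 miRNAs tested in PANC-1. By total count, control replicate 2 lay above knockdown replicate 3, so the groups overlapped. The means were 32.8 ± 3.64 and 45.1 ± 4.67 CPM (SD, n = 3), and the LFC was 0.45 (standard error 0.13), which was the 51st highest. The median LFC in PANC-1 was 0.03 with TMM scaling and -0.12 with total count scaling, under which the LFC of miR-671-3p was 0.31. AsPC-1 minus PANC-1, the LFC of the 3p arm was -0.57 (standard error 0.22) in the fit over all libraries. It was -0.34 with total count scaling, -0.40 with DESeq2 size factors and -0.64 without AsPC-1 control replicate 1.

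**Figure D1:**
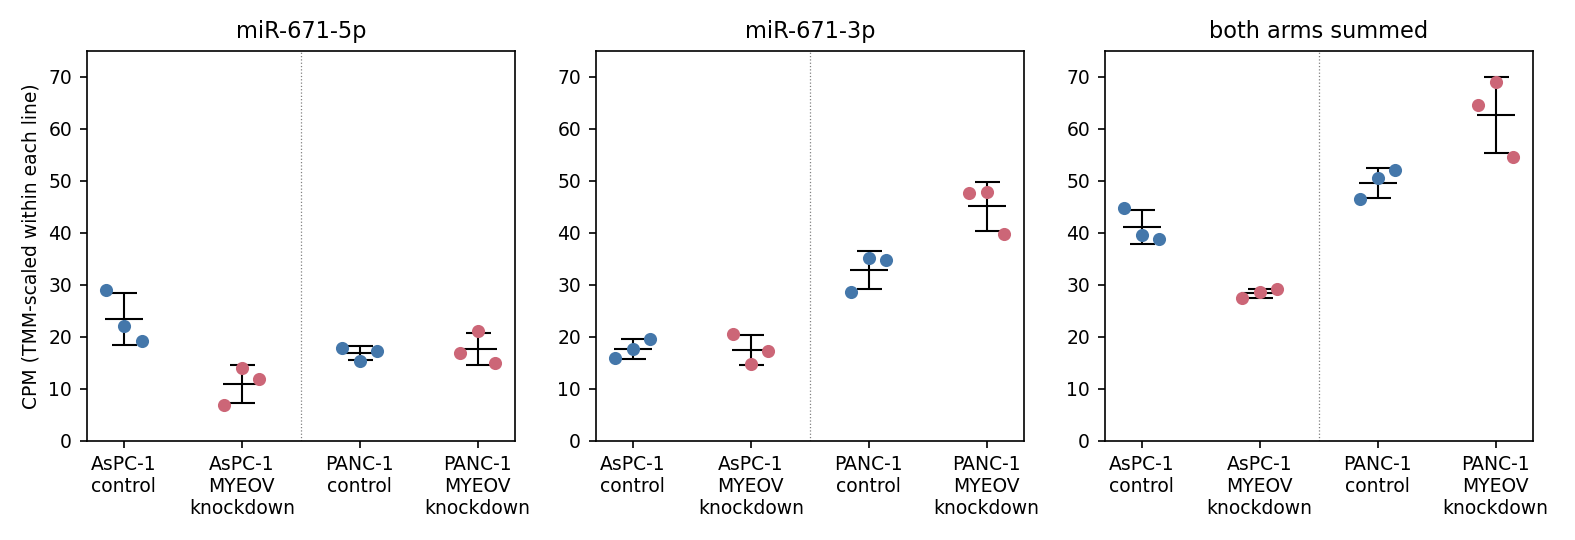
Level of miR-671-5p, of miR-671-3p and of their sum in CPM, scaled with TMM factors within each line, so that heights are comparable within a line. Each point is 1 library, and bars show the mean and SD of 3 libraries. The 5p arm is lower after knockdown in AsPC-1 (10.9 against 23.4 CPM), the 3p arm is higher after knockdown in PANC-1 (45.1 against 32.8 CPM), and the sum moves down in AsPC-1 and up in PANC-1.

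The sum of both arms is the quantity in which the lines went in opposite ways. In AsPC-1, the arms together had 44.8, 39.6 and 38.7 CPM in the controls and 27.4, 28.6 and 29.1 CPM after knockdown, a difference of -30.8% (log2 change -0.53, standard error 0.07). In PANC-1, they had 46.4, 50.5 and 52.0 CPM in the controls and 64.6, 68.9 and 54.7 CPM after knockdown, a difference of 25.8% (log2 change 0.33, standard error 0.11). The groups did not overlap in either line. The scatter between the AsPC-1 knockdown libraries was small for the sum (SD 0.869 CPM) beside that of the arms (3.61 and 2.90 CPM), since the library with the fewest 5p reads had the most 3p reads. Over 174 hairpins with both arms tested, the sum was lower without overlap in AsPC-1 for 13.2%, higher without overlap in PANC-1 for 15.5%, and opposite in the 2 lines without overlap for 2.3% (4 hairpins, MIR671 among them). The arms were chosen by these values, so the shares support nothing by themselves. With total count scaling, the change in PANC-1 was 0.19 and the groups overlapped. In AsPC-1, the change was -0.47 without control replicate 1.

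Among the 414 miRNAs tested in both lines, 30.2% had LFCs of opposite sign, and both arms of MIR671 are among them. For each arm, 1 of the 2 values lay within its standard error of 0, so this sign carries little.

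**Figure D2:**
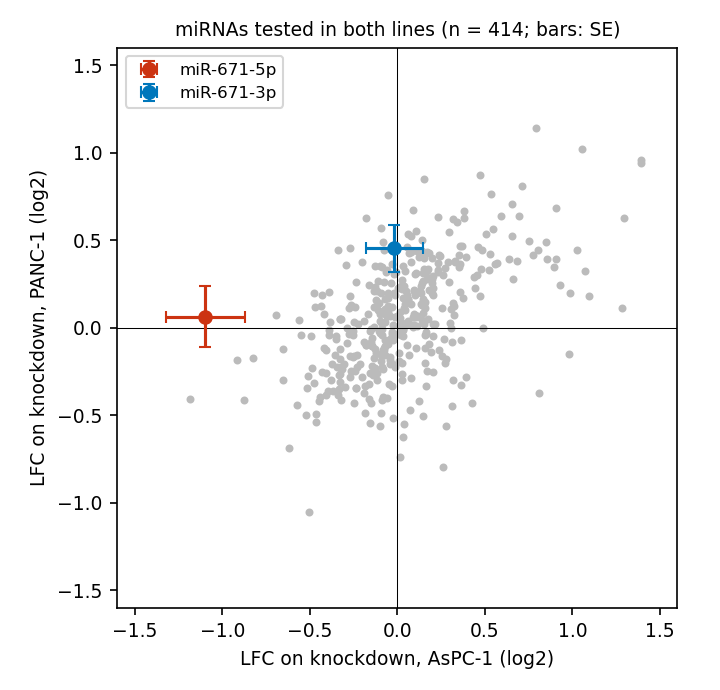
LFC after MYEOV knockdown in AsPC-1 (x axis) and PANC-1 (y axis) of the 414 miRNAs tested in both lines, in log2 units. Each grey point is 1 miRNA, and error bars on the arms of MIR671 are standard errors. The 5p arm lies far left near the horizontal zero line (-1.10 and 0.06), and the 3p arm lies on the vertical zero line above the center (-0.02 and 0.45).

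The balance of the arms is a ratio within a library and does not depend on scaling. In the AsPC-1 controls, the 5p arm made up 64.7%, 55.7% and 49.5% of the reads of both arms, with 95% Wilson intervals of 59.2 to 69.9, 49.9 to 61.4 and 43.6 to 55.3. After knockdown, it made up 25.2% (19.1 to 32.4), 48.5% (41.2 to 56.0) and 41.0% (33.7 to 48.7). Each knockdown library lay below each control, but the intervals of control replicate 3 and knockdown replicate 2 overlapped almost entirely. The mean share was 56.6 ± 7.65% and 38.2 ± 11.9% (SD, n = 3).

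In the PANC-1 controls, the share of the 5p arm was 38.4% (32.1 to 45.1), 30.5% (25.3 to 36.2) and 33.3% (27.2 to 40.1). After knockdown, it was 26.2% (21.1 to 32.0), 30.5% (25.3 to 36.4) and 27.4% (22.2 to 33.3). Here the groups overlapped (26.4% of the arm pairs did not, in either direction), with means of 34.1 ± 4.0% and 28.1 ± 2.23% (SD, n = 3). The 3p arm was thus the more abundant arm in each PANC-1 library, whereas in AsPC-1 the 5p arm was ahead in control replicates 1 and 2 and behind in the other 4 libraries.

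On the log2 scale, the ratio of 5p to 3p differed by -1.11 between knockdown and control in AsPC-1 (standard error 0.51) and by -0.40 in PANC-1 (standard error 0.17). Both are differences in the same direction, in contrast to the sum. The value in AsPC-1 was the 4th lowest of 174 arm pairs, and it was -0.69 without knockdown replicate 1 and -0.87 without control replicate 1. The value in PANC-1 was the 35th lowest, and it was -0.27 without PANC-1 control replicate 1 and ranged from -0.52 to -0.27 when each library was left out in turn. A ratio that was lower in each knockdown library than in each control was found for 14.4% of the arm pairs in AsPC-1 and for 10.9% in PANC-1.

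**Figure D3:**
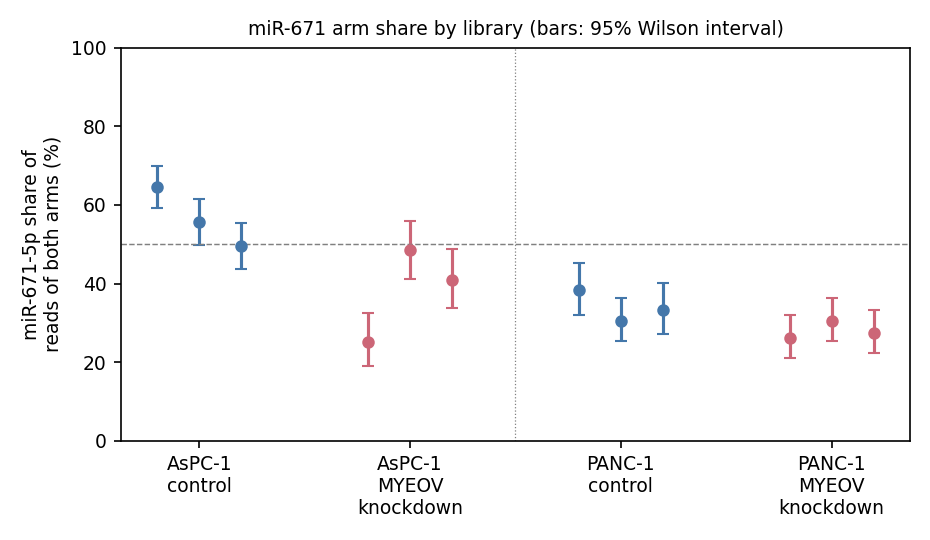
Share of miR-671-5p among the reads of both arms, in percent, for each of the 12 libraries. Bars show the 95% Wilson interval, and the dashed line marks equal shares. AsPC-1 controls range from 49.5% to 64.7% and the 6 PANC-1 libraries from 26.2% to 38.4%, with AsPC-1 knockdown replicate 1 (25.2%) below all of the latter.

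Whether the lines differed in the balance of the arms was tested on the mean of control and knockdown libraries, since this mean is orthogonal to the knockdown differences that chose the arms. The 5p arm had a larger share in AsPC-1 than in PANC-1, although it was the minor arm in 4 of the 6 AsPC-1 libraries. Averaged over both conditions, AsPC-1 had a log2 ratio of 5p to 3p of -0.17, and PANC-1 had -1.15. The difference was 0.99 (standard error 0.26), a ratio 1.98 times as high in AsPC-1 (adjusted p = 0.00765, limma over 174 arm pairs with Benjamini-Hochberg adjustment). An exact permutation test of the lines within each condition gave a two-sided p of 0.02, where 0.005 is the smallest p it allows. The lines overlapped, since AsPC-1 knockdown replicate 1 had a ratio as low as the PANC-1 libraries. Of all arm pairs, 31% did not overlap between the lines, 16.7% with the higher ratio in AsPC-1. A difference between the lines was common, with 55.7% of the arm pairs passing the limma threshold and 31.6% passing with a higher ratio in AsPC-1, so it is not particular to MIR671. Its size was the 53rd largest of the 174, and the median absolute difference was 0.60. MiR-1247 and miR-431, for example, had a mean log2 ratio of exactly 0 in AsPC-1 controls, which no reads of either arm would also give. Their line differences were 2.72 and -2.49 and passed the threshold. The shares, rank and median of all arm pairs may therefore mix scarcely read hairpins with differences in arm balance. The same arm pairs count towards the shares and ranks given above for the knockdown differences. For MIR671, the difference was 1.34 among the control libraries and 0.63 among the knockdown libraries. These values contain the knockdown differences that chose the arms and are given as a description. Leaving out each library in turn gave 0.83 to 1.20, with the threshold passed each time. Without AsPC-1 control replicate 1, it was 0.87.

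MIR671 was among the hairpins with fairly even arms. AsPC-1 controls had a mean log2 ratio of 0.39 ± 0.45, and PANC-1 controls had -0.95 ± 0.26 (SD, n = 3). A mean ratio within 1 log2 unit of equality was found for 34 of the 174 hairpins in AsPC-1 controls and for 25 in PANC-1 controls. The median distance from equality was 2.91 and 3.36 log2 units. Some of these hairpins had a mean of exactly 0 in AsPC-1 controls, the value that no reads of either arm would also give. With 0.5 added to each count, hairpins with few reads are drawn towards 0. These counts and medians may therefore include hairpins that were scarcely read.

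**Figure D4:**
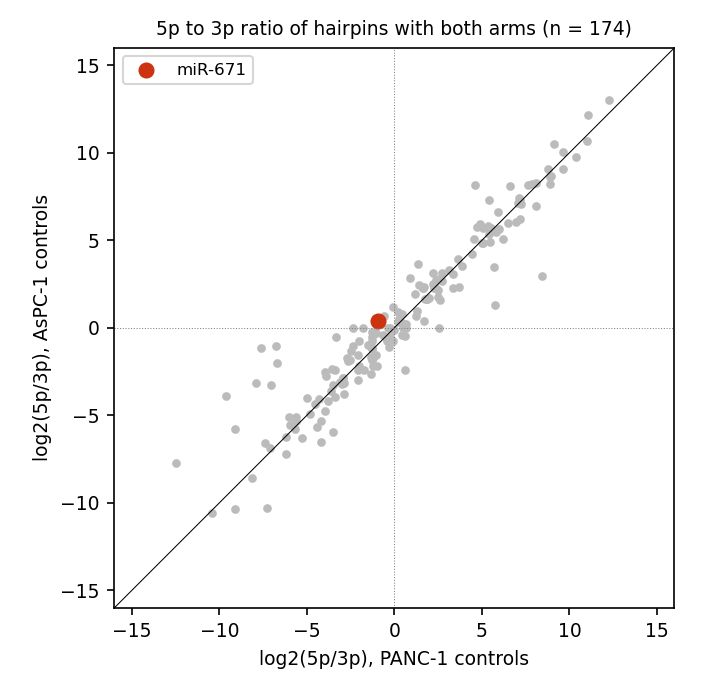
Mean log2 ratio of 5p to 3p reads in the PANC-1 controls (x axis) and the AsPC-1 controls (y axis) for 174 hairpins with both arms tested. Each grey point is 1 hairpin, and the diagonal marks equal ratios in both lines. MIR671 (red) lies near the center, above the diagonal, at -0.95 and 0.39.

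In level, the lines were compared with all 12 libraries scaled together, again as the mean of both conditions. With TMM factors and all libraries, miR-671-3p was lower in AsPC-1, whereas the difference in miR-671-5p did not pass the threshold. Neither direction held under each scaling. On this common scale, miR-671-3p had 20.7 ± 2.03 CPM in AsPC-1 controls, 19.0 ± 1.76 after knockdown, 28.9 ± 3.32 in PANC-1 controls and 39.7 ± 4.33 after knockdown (SD, n = 3). Each AsPC-1 library lay below each PANC-1 library, as for 39.2% of the 650 miRNAs tested (70.5% in either direction). The LFC of AsPC-1 against PANC-1 was -0.76 (standard error 0.11, adjusted p = 5.73e-08, edgeR), in a comparison in which 87.7% of the miRNAs passed and 47.7% passed with a lower level in AsPC-1. The exact permutation test of the lines within each condition gave a two-sided p of 0.005, the smallest it allows. Both the size and the direction of this difference depended on scaling. It was -1.13 with total count scaling and 0.049 with upper-quartile factors (adjusted p = 0.668, edgeR), which moved the median LFC of all miRNAs from -0.21 to 0.60. Relative to the median of all miRNAs, the 3p arm was at -0.56, a value that a change of scaling leaves nearly fixed by construction.

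MiR-671-5p had 27.7 ± 7.08 CPM in AsPC-1 controls, 12.2 ± 4.78 after knockdown, 14.8 ± 1.09 in PANC-1 controls and 15.5 ± 2.79 after knockdown (SD, n = 3). The AsPC-1 controls were the highest group, and the other 3 groups did not differ beyond their spread. For miR-671-3p, the order ran from PANC-1 knockdown over PANC-1 control to both AsPC-1 groups, which did not differ beyond their spread. Averaged over conditions, the LFC of miR-671-5p between the lines was 0.27 (standard error 0.16, 95% interval -0.04 to 0.58, adjusted p = 0.101, edgeR), and the exact permutation test gave p = 0.475. It was 0.41 without AsPC-1 knockdown replicate 1 (adjusted p = 0.0124, edgeR), -0.10 with total count scaling and 1.08 with upper-quartile factors (adjusted p = 2.89e-08, edgeR). Relative to the median of all miRNAs, it was at 0.48 with TMM factors. Among the control libraries alone it was 0.75, and among the knockdown libraries alone -0.36, values that contain the knockdown LFC by which the arm was chosen. By mean level, miR-671-5p ranked 243rd of 1319 miRNAs listed in AsPC-1 controls and 350th of 1374 in PANC-1 controls. MiR-671-3p ranked 260th and 296th.

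The miRNAs whose pattern was most like that of an arm were named by Pearson's r of log2 CPM over the 12 libraries, which share line and condition, so r describes these libraries only. For miR-671-5p, they were miR-574-3p (0.872), miR-32-5p (0.805) and miR-106a-5p (0.768). MiR-574-3p had its highest mean in AsPC-1 controls (143 CPM) and means of 107 to 110 CPM in the other groups. For miR-671-3p, they were miR-30c-2-3p (0.955), miR-130b-5p (0.946) and miR-7706 (0.939). MiR-30c-2-3p had 47.9 and 39.3 CPM in AsPC-1 and 85.3 and 132 CPM in PANC-1, before and after knockdown. Between the arms of MIR671 themselves, r was -0.155 over the 12 libraries, -0.0014 over the 6 of AsPC-1 and 0.306 over the 6 of PANC-1.

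MiR-7 is the miRNA that CDR1as binds, and its members were examined as the list that belongs to this circuit. MiR-7-5p was far more abundant than either arm of MIR671 and was the 4th most abundant miRNA of the AsPC-1 controls. On the common scale, it had 60891 ± 5664 CPM in AsPC-1 controls, 47028 ± 2761 after knockdown, 15123 ± 2059 in PANC-1 controls and 14726 ± 1011 after knockdown (SD, n = 3). Its level was 3.59 times as high in AsPC-1 as in PANC-1 (LFC 1.84 with a standard error of 0.07, adjusted p = 1.33e-23 from edgeR, where 40% of the miRNAs passed with a higher level in AsPC-1), and the libraries of the lines did not overlap, as for 70.5% of the miRNAs in either direction. The difference was 1.48 to 2.66 under other scalings and kept its direction.

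After MYEOV knockdown, 0 of the 2 members tested passed the edgeR threshold in either line. The unadjusted p was under 0.05 for miR-7-5p in AsPC-1 and for no other. There its LFC was -0.28 with a standard error of 0.09 and an adjusted p of 0.0633 (edgeR; DESeq2 gave 0.0634), where 11.4% of the miRNAs tested passed. Each knockdown library lay below each control, at 41996 to 43395 CPM against 44119 to 56508 CPM on the scale of that line, which 13.7% of the miRNAs also did. The difference passed the threshold in some fits, with an LFC of -0.38 and an adjusted p of 2.71e-07 (edgeR) without control replicate 1, and an adjusted p above the threshold with any of the other 5 libraries left out. In PANC-1, the LFC was -0.04 (standard error 0.10, 95% interval -0.23 to 0.16, adjusted p = 0.815, edgeR), where 22% of the miRNAs tested passed. The difference between the lines in this LFC was -0.33 (standard error 0.14, adjusted p = 0.33, edgeR).

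MiR-7-1-3p, the partner strand from the hairpin MIR7-1, had 60.2 ± 2.08 and 58.7 ± 4.64 CPM in AsPC-1 and 34.8 ± 2.49 and 39.1 ± 4.15 CPM in PANC-1, in control and knockdown libraries (SD, n = 3). Its LFC after knockdown was 0.06 in AsPC-1 (adjusted p = 0.773, edgeR) and 0.16 in PANC-1 (adjusted p = 0.385, edgeR). With TMM factors, it was higher in AsPC-1 than in PANC-1 by 0.69 (adjusted p = 1.02e-08, edgeR), where 40% of the miRNAs passed in that direction. The size depends on scaling, since total count and upper-quartile scaling moved the median line difference of all miRNAs by -0.37 and 0.81. MiR-7-2-3p had 1 read in AsPC-1 control replicate 1, 2 reads in PANC-1 knockdown replicate 1 and none in the other libraries, which is below the floor. It did not pass the filter on low counts and was not tested.

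**Figure D5:**
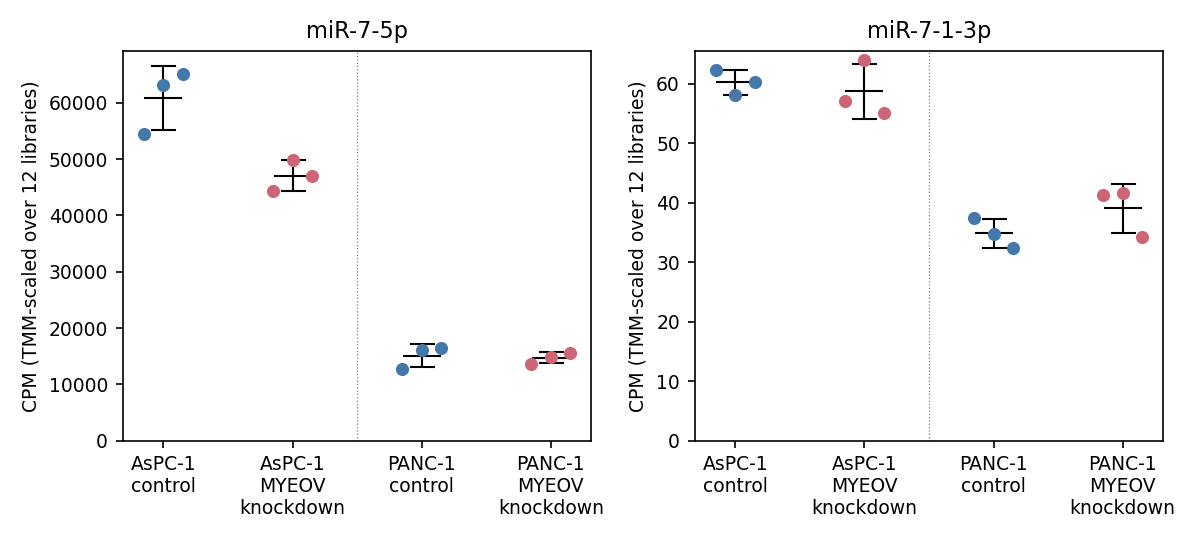
Level of miR-7-5p (left) and miR-7-1-3p (right) in CPM in each library, scaled over all 12 libraries. Points are libraries, and bars show the mean and SD of 3 libraries. Both are higher in AsPC-1, and the AsPC-1 knockdown libraries of miR-7-5p (mean 47028 CPM) lie below the AsPC-1 controls (mean 60891 CPM).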

How the data were processed

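Adapters were removed by the authors, and reads that matched hg19 perfectly were kept after alignment with Bowtie (version not given in the sources used here). The deposited values are raw read counts per mature miRNA. Each count covers the most abundant sequence of a miRNA and those with the same 5′ end. Reads with another 5′ end are missing from it, and the end chosen could differ between libraries. An unlisted miRNA was given a count of 0.

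Counts were fitted with edgeR 4.0.16 in R 4.3.3 (filterByExpr with a minimum count of 10, TMM factors, quasi-likelihood test, no replicate block), within each line (498 and 551 miRNAs tested) and over all 12 libraries (650 tested). The Benjamini-Hochberg adjustment covered each whole set of tested miRNAs, with a threshold of 0.05. Standard errors were computed as |LFC| over the root of the F statistic. Arm ratios were log2 ratios with 0.5 added to each count, tested over 174 arm pairs with limma 3.58.1. Structures were predicted with RNAfold 2.7.2. The fits were tested on simulated data with the same dispersion for every miRNA and no outlying library. These differ from the AsPC-1 libraries, so the simulation does not show how the fits perform on them. The members and lists were chosen with earlier results of these data known. The miRNAs named are both arms, the miR-7 list, miRNAs with a shared seed, neighbors within 1000000 bases and the 3 most similar in pattern to each arm. Sequences are from RefSeq (GRCh38.p14), positions from GRCh37 with GENCODE. Alternatives covered scaling, filter, test (DESeq2 1.42.0), block and left-out libraries. MiR-7-2-3p and miR-3907 were too sparse to test.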

Additional observations from a re-analysis of the deposited data

Results flagged for a closer look

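The sum of both miR-671 arms was lower in each AsPC-1 knockdown library than in each AsPC-1 control and higher in each PANC-1 knockdown library than in each PANC-1 control. The log2 change in AsPC-1 minus that in PANC-1 was -0.86. The difference was not tested, since the arms were chosen by these values. With total count scaling, the groups overlapped in PANC-1.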

How the results depend on the processing

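At 40 to 196 reads per library, counting error limits what can be seen of either arm. The level difference of miR-671-5p between the lines was -0.10 with total count scaling (adjusted p = 0.545), 1.08 with upper-quartile factors (adjusted p = 2.89e-08), 0.75 with control libraries only, -0.36 with knockdown libraries only, and 0.12 to 0.41 with each library left out. That of miR-671-3p was 0.049 with upper-quartile factors (adjusted p = 0.668) and -0.85 to -0.73 with each library left out. The difference in arm ratio was 0.63 with knockdown libraries only and 1.34 with control libraries only. Values within 1 condition contain the knockdown differences that chose the arms, so they carry no test. The arm ratio difference was 0.83 to 1.20 with each library left out. With total count scaling, the line difference of the knockdown LFC of miR-671-3p was -0.34, and the change of the summed arms in PANC-1 was 0.19. With TMM factors over all 12 libraries, that in AsPC-1 was -0.63. The alternatives for the sum were chosen after seeing the data. The knockdown LFC of miR-671-3p in AsPC-1 was -0.15 to 0.10 with each library left out. That of miR-7-5p in AsPC-1 passed with total count scaling (-0.29), no filter (-0.28) and all 12 libraries in one fit (-0.37), and was -0.38 to -0.22 with each library left out. In PANC-1 it was -0.16 to 0.02, above 0 at 0.0058, 0.018 and 0.015 without control replicates 2 and 3 and knockdown replicate 1. The upper-quartile and total count values of the level differences between the lines follow from the shift of all miRNAs under these scalings (0.81 and -0.37). The total count value of the summed arms in PANC-1 follows from the shift in that line (-0.15). The cause of the other moves was not tested. For the replicate block, deviations of same-numbered libraries correlated between -0.155 and 0.128 (AsPC-1) or 0.0290 and 0.139 (PANC-1). With 3 pairs per line, these values cannot settle whether same-numbered libraries share more than a number. With the block, 29 miRNAs passed in AsPC-1 (57 without) and 153 in PANC-1 (121 without), and the LFC was -1.10 for miR-671-5p in AsPC-1, 0.46 for miR-671-3p in PANC-1, -0.76 for miR-671-3p between the lines and 0.99 for the arm ratio. No call changed with it for the line differences of both arms, of the arm ratio and of miR-7-5p. The knockdown calls of miR-7-5p also stayed the same. Other tests named here were not checked with the block.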
